A study of Danio rerio with 6 samples.

Results

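The 10 genes described here encode chaperones of the endoplasmic reticulum (ER) and components of the unfolded protein response: hspa5, hsp90b1, sdf2l1, pdia4, canx, calr3a, edem1, atf6, xbp1 and ddit3. They were chosen by symbol, looked up by Ensembl identifier and, where the name table gave a family symbol, by chromosome. All 10 were found among the 32520 genes of the deposited tables, and all 10 passed the filter on low values. RNA came from whole, untreated zebrafish larvae at 5 days post fertilization, raised in E3 medium in a light-dark cycle, with 30 larvae in each pool. The labels give 3 pools as (stim2a;stim2b)−/− and 3 pools as (stim2a;stim2b)+/+. The labels name neither the mutant alleles nor the parental strain. Nor do they say whether pools are of different clutches, and p-values therefore cover only the variation among these pools, which may be technical.

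The ER folds secreted and membrane proteins and stores calcium, and several of its most abundant chaperones bind calcium. When unfolded proteins accumulate, 3 sensors of the ER membrane, IRE1, PERK and ATF6, start the unfolded protein response. IRE1 splices xbp1 mRNA, PERK slows translation and favours ATF4 and then CHOP, and ATF6 is cut to release a transcription factor; together these raise chaperones and the degradation of misfolded proteins. STIM2 proteins sense the calcium store of the same organelle and gate ORAI channels of the cell surface. Secretory tissues such as the exocrine pancreas, the liver and cartilage are known for a heavy load on this system.

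The labels have to be read with care. RNA of stim2a stood at 0.328 ± 0.0752 TPM under the +/+ label and 1.31 ± 0.104 TPM under the −/− label (SD, n = 3 each), and stim2b at 0.580 ± 0.128 and 1.57 ± 0.258 TPM (SD, n = 3 each). Both genes reached 1 TPM only in libraries labelled −/−, so they passed the filter through the group where they are high. Their limma values (adjusted p = 0.00213 and 0.00871) are therefore a description and no support. stim2b missed the threshold without replicate 2 labelled +/+ (0.0546). By TPM, both targeted genes were lower in every library labelled +/+ than in any labelled −/−. The names of the deposited data also run against the labels and were not used. The groups are therefore called libraries labelled −/− and libraries labelled +/+, and every direction below follows those labels. TPM is a share of transcripts, corrected for gene length and set to an equal total in every library, so it holds no depth. Relative depth, read from coverage divided by FPKM, ranged from 4.64 to 5.93. Mean coverage per base of the 10 genes ran from 23.2 for atf6 to 1247 for calr3a, against 1.05 to 6.96 for the 2 targeted genes. Of the tissue marker genes matched by symbol, 16 of 16 liver, 12 of 12 neuronal and 11 of 11 keratinocyte genes reached 1 TPM in some library. So did 11 of 11 cartilage and notochord, 16 of 16 exocrine pancreas and 6 of 7 mucous and hatching gland genes. Only 14 of 21 listed exocrine pancreas symbols and 11 of 12 keratinocyte symbols were matched. In such pooled larvae, fewer cells of a type and less RNA per cell cannot be told apart.

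Under the −/− label, the Hsp70 chaperone gene hspa5, the sensor gene atf6, the membrane lectin gene canx and the CHOP gene ddit3 were higher, and the soluble lectin gene calr3a and the disulfide isomerase gene pdia4 were lower. For hsp90b1, xbp1, sdf2l1 and edem1 the test was not passed. That is 6 of 10 called by limma on log2(TPM + 0.5) at an adjusted p under 0.05 over all 20330 tested genes, 4 higher and 2 lower. Of all tested genes, 39.6% were called, 30.8% higher and 8.76% lower, so a count of this kind is common in these data. The groups did not overlap for 8 of the 10 genes, against 55.8% of all tested genes. The summed level of the 10 genes was 798.0 to 911.6 TPM under the +/+ label and 856.9 to 942.9 TPM under the −/− label; these ranges overlap. The composition of the libraries also varied, with ranges that overlapped between the labels. Mitochondrial transcripts held 8.50% to 10.27% of TPM under the +/+ label and 7.17%, 9.29% and 6.93% in replicates 1, 2 and 3 under the −/− label. The top 200 genes held 56.1% to 59.6% and 52.9% to 56.8%. hspa5, atf6, canx and ddit3 were highest in replicates 3 and 1 labelled −/−, where the mitochondrial share was lowest; the part of this share in the result was not tested.

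Directions depend on the scale for part of the genes. Over all tested genes the median log2 fold change was 0.22 on the deposited scale. Dividing each library by its median gene ratio, called rescaling below, brought it to 0.00. After rescaling, 2 of the 10 were called higher (hspa5, atf6) and 2 lower (calr3a, pdia4), against 22.0% and 22.4% of all tested genes (44.5% in either direction), while canx and ddit3 missed the threshold. With quantile scaling of the libraries instead, canx (adjusted p = 0.0268 by limma) and ddit3 (0.0160) passed as higher. That fit called 5 members, 4 higher and 1 lower, beside 4161 higher and 4229 lower of all 20330 tested genes. With rescaling and the replicate number as a block, canx and ddit3 passed as higher, and 6 members were called, against 57.7% of all tested genes. No label pairs libraries by replicate number. Values with this block, here and below, rest on a pairing taken from the data alone. Without replicate 1 or without replicate 2 labelled +/+, 0 of the 10 passed limma with TPM as deposited. In these fits 3.02% and 2.14% of all tested genes passed. The adjusted p of hspa5 was then 0.0663 and 0.0701, and that of atf6 0.0602 and 0.0646. Their log2 fold changes were 0.81 and 0.81 for hspa5 and 0.86 and 0.81 for atf6, against 0.88 and 0.91 with all 6 libraries. With rescaling as well, hspa5 (0.0413 and 0.0454) and atf6 (0.0282 and 0.0323) passed in both of these fits, as did 17.0% and 16.3% of all tested genes. Leaving out replicate 1, 2 or 3 labelled −/− left 3, 4 and 3 calls, hspa5 and atf6 among them each time, beside 20.3%, 38.5% and 20.8% of all tested genes. Leaving out replicate 3 labelled +/+ gave 9 calls, with hsp90b1, edem1 and xbp1 added as higher, beside 47.5% of all tested genes. Replicate 3 had the highest value of its label for hspa5, atf6, canx and ddit3 under both labels, and without replicate 3 of both labels 9 members were called beside 50.5% of all tested genes, a setting added after seeing the data. With the replicate number as a block 6 members were called higher and 2 lower, where 45.6% and 13.3% of all tested genes were (58.8% in either direction).

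**Figure D1:**
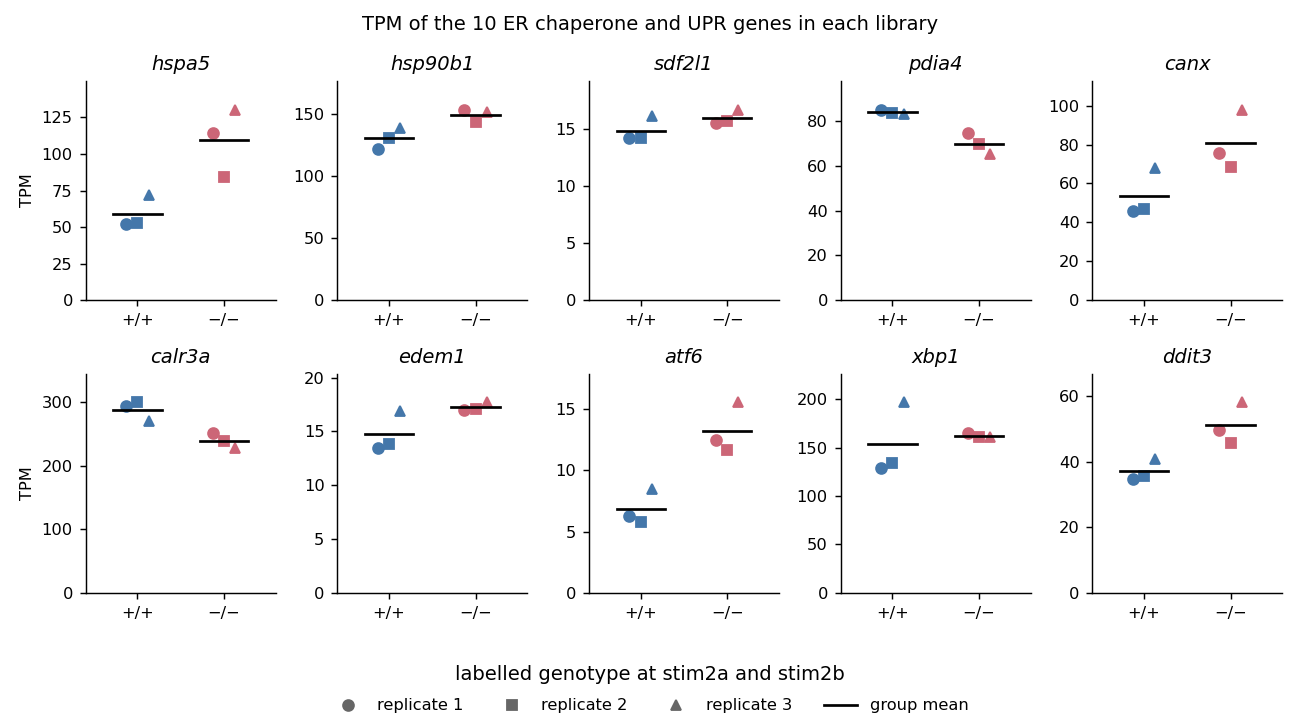
TPM (vertical axes, from 0) of the 10 genes in each of the 6 libraries, by labelled genotype; symbols mark the replicate and bars the group mean. hspa5 and atf6 lie higher in every library labelled −/− than in any labelled +/+, calr3a and pdia4 lie lower, and xbp1 and sdf2l1 overlap.

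Among the Hsp70 and Hsp90 chaperones, hspa5 (ENSDARG00000103846.3; chromosome 5, minus strand, 2713779 to 2721686 in the deposited tables) encodes BiP, the ER Hsp70, which binds unfolded chains and in mammals also holds the stress sensors inactive. It stood at 52.4, 52.6 and 71.9 TPM in replicates 1, 2 and 3 labelled +/+ and at 114.3, 84.3 and 130.3 TPM under the −/− label. The groups did not overlap, and replicate 3 was the highest library under both labels. The means of 59.0 ± 11.2 and 109.6 ± 23.4 TPM (SD, n = 3 each) give a ratio of 1.86, and the log2 fold change was 0.88 ± 0.18 (SE, adjusted p = 0.0151 by limma), or 0.64 ± 0.13 after rescaling (adjusted p = 0.00904). A two-sided exact permutation test over the libraries gave hspa5 p = 0.1, the smallest that 3 against 3 allows, as it did for each of the 8 genes whose groups did not overlap.

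The Hsp90 of the ER, GRP94, is encoded by hsp90b1 (ENSDARG00000003570.8; chromosome 4, 9836465 to 9843836) and serves a narrower set of clients such as integrins and Toll-like receptors. Its level was 121.5, 130.4 and 138.3 TPM under the +/+ label and 153.2, 143.0 and 151.5 TPM under the −/− label. The groups were apart, but by little. The log2 fold change of 0.20, with a 95% interval of 0.02 to 0.38, missed the threshold (adjusted p = 0.0744) and lay near the median of all genes; after rescaling it was −0.04, with an interval of −0.24 to 0.15. With the replicate number as a block hsp90b1 passed as higher (adjusted p = 0.0388), and the block with rescaling gave −0.04 (adjusted p = 0.507). The small ER protein SDF2L1, from sdf2l1 (ENSDARG00000035631.6; chromosome 5, 13308531 to 13315726), works with BiP and its J-protein partners in mammals. It stood at 14.2, 14.2 and 16.2 TPM against 15.6, 15.7 and 16.7 TPM, with overlapping groups and a log2 fold change of 0.11 (95% interval −0.12 to 0.33, adjusted p = 0.399), −0.13 after rescaling. The gene lies wholly within ydjc on the opposite strand (11.2 ± 0.348 and 10.7 ± 0.344 TPM; SD, n = 3 each). The libraries are stranded per the labels' protocols, but the sources used here do not give whether counting used the strand.

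The lectin chaperones hold newly made glycoproteins until they fold. Calnexin, the membrane-bound form, is encoded by canx (ENSDARG00000037488.6; chromosome 14, minus strand, 16432738 to 16476863). Its level was 46.0, 46.7 and 67.9 TPM under the +/+ label and 75.8, 68.4 and 98.0 TPM under the −/− label. Replicate 3 labelled +/+ nearly reached replicate 2 labelled −/−, and the groups were just apart. The ratio of means was 1.51 and the log2 fold change 0.59 ± 0.18 (SE, adjusted p = 0.0365 by limma), or 0.35 after rescaling (adjusted p = 0.0510; 0.00326 once replicate number was a block); the call was also lost without a filter on low values and without replicate 1 or 3 labelled −/−.

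The soluble form is calreticulin, a major calcium buffer of the ER. The zebrafish gene calr3a (ENSDARG00000103979.2; chromosome 22, minus strand, 4762478 to 4769140) was the most abundant of the 10 under both labels, at 294.7, 300.2 and 270.8 TPM under the +/+ label and 251.2, 239.6 and 228.5 TPM under the −/− label. Every library labelled −/− was below every library labelled +/+. The log2 fold change was −0.27 ± 0.08 (SE, adjusted p = 0.0299), and −0.51 ± 0.13 after rescaling (adjusted p = 0.0161). With quantile scaling calr3a missed the threshold (0.0535), and leaving out any library except replicate 3 labelled +/+ also ended the call. Its paralogs had lower levels and values of the same sign: calr stood at 98.4 ± 2.84 and 83.2 ± 2.37 TPM (adjusted p = 0.0329), and calr3b at 84.4 ± 4.02 and 77.6 ± 3.13 TPM (SD, n = 3 each; adjusted p = 0.228). After rescaling, limma called both calr (adjusted p = 0.00689) and calr3b (0.0159) lower, as it did 22.4% of all tested genes. The sources used here do not give how reads shared by these paralogs were assigned.

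Disulfide isomerases form and shuffle the bonds of secreted proteins. The member pdia4 (ENSDARG00000018491.10; chromosome 24, 17334678 to 17341458), known in mammals as ERp72, stood at 85.3, 83.7 and 83.5 TPM under the +/+ label and 74.6, 70.06 and 65.6 TPM under the −/− label. The spread among the libraries labelled +/+ was small, 84.1 ± 0.986 TPM, against 70.08 ± 4.53 TPM (SD, n = 3 each) for the others. The log2 fold change was −0.26 ± 0.08 (SE, adjusted p = 0.0334 by limma) and −0.51 ± 0.12 after rescaling (adjusted p = 0.0118). The call was lost without replicate 2 or 3 labelled −/−, besides the 2 losses shared by all 6 called members.

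Misfolded glycoproteins are passed on for degradation by mannosidase-like proteins of the EDEM family. The gene edem1 (ENSDARG00000025094.11; chromosome 6, minus strand, 42932757 to 42949184) stood at 13.5, 13.8 and 16.9 TPM under the +/+ label and 17.0, 17.1 and 17.7 TPM under the −/− label. The groups were barely apart, with replicate 3 labelled +/+ just below the lowest library labelled −/−. The log2 fold change of 0.23 (95% interval −0.03 to 0.49) missed the threshold (adjusted p = 0.127), passed with the replicate block (0.0494) and was −0.01 after rescaling (95% interval −0.20 to 0.19).

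The sensor gene atf6 (ENSDARG00000012656.10; chromosome 20, minus strand, 33809434 to 33909872) was the least abundant of the 10 in mean level, and its log2 fold change lay within 1 SE of that of hspa5. It stood at 6.27, 5.82 and 8.52 TPM under the +/+ label and at 12.5, 11.7 and 15.6 TPM under the −/− label. The groups did not overlap. The ratio of means was 1.93 and the log2 fold change 0.91 ± 0.17 (SE; limma adjusted p = 0.0125), or 0.68 after rescaling (adjusted p = 0.00532). The gene overlaps rxrgb, a retinoid X receptor gene on the opposite strand, over 34617 bases; rxrgb stood at 4.49 ± 0.620 and 7.0 ± 0.934 TPM (SD, n = 3 each), so it too had a higher mean under the label −/−, and its part in the value of atf6 was not tested.

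Below the sensors, xbp1 (ENSDARG00000035622.8; chromosome 5, minus strand, 15944411 to 15948920) encodes the transcription factor made active by IRE1 splicing; a gene-level TPM adds the spliced and unspliced forms and does not show their balance. Its level was 129.2, 134.5 and 196.8 TPM under the +/+ label and 165.1, 161.4 and 160.9 TPM under the −/− label. The libraries labelled −/− lay close together, between replicate 3 labelled +/+, the highest of all 6, and the other 2 of that label. The log2 fold change was 0.11 (95% interval −0.24 to 0.46, adjusted p = 0.576) and −0.13 after rescaling. Without replicate 3 labelled +/+, xbp1 was called higher at 0.30 (adjusted p = 0.0176), and without replicate 1 labelled +/+ its value was −0.0025 (adjusted p = 0.992).

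The gene ddit3 (ENSDARG00000059836.6; chromosome 6, 58915889 to 58919086) encodes CHOP, a transcription factor downstream of PERK and ATF4 that is linked to cell death under lasting stress. It stood at 34.9, 35.7 and 40.9 TPM under the +/+ label and 49.7, 45.7 and 58.1 TPM under the −/− label. The groups did not overlap, and replicate 3 was again the highest under both labels. The log2 fold change was 0.45 ± 0.11 (SE, ratio of means 1.38, adjusted p = 0.0222 by limma), and 0.21 after rescaling, where the threshold was missed (adjusted p = 0.0633) unless the replicate block was added (0.0240); it was also lost without replicate 1 labelled −/−.

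**Figure D2:**
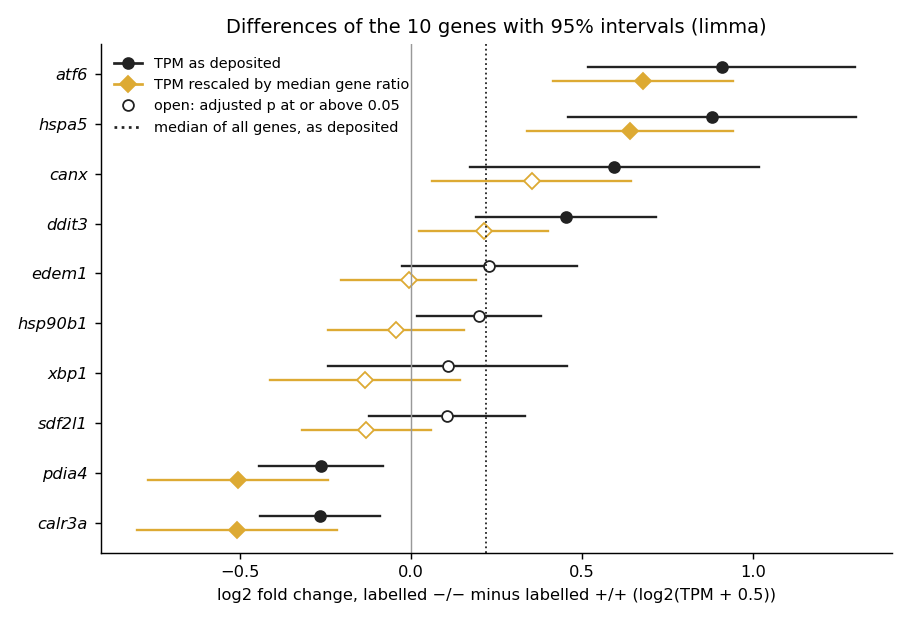
Log2 fold change (horizontal axis, labelled −/− minus labelled +/+) of the 10 genes with 95% intervals from limma, on the deposited scale and after rescaling; open symbols missed the threshold and the dotted line is the median of all tested genes at 0.22. hspa5 and atf6 stay to the right and calr3a and pdia4 to the left of 0 on both scales.

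Ranked by mean level, the order under the label +/+ was calr3a, xbp1, hsp90b1, pdia4, hspa5, canx, ddit3, sdf2l1, edem1 and atf6. In that order xbp1 and hsp90b1, hspa5 and canx, and sdf2l1 and edem1 overlapped between neighbours. Under the label −/− hspa5 and canx both stood above pdia4, and edem1 above sdf2l1; there the overlapping neighbours were hspa5 and canx, canx and pdia4, and sdf2l1 and atf6. Under the +/+ label, every value of pdia4 was above every value of hspa5 (83.5 TPM or more against 71.9 TPM or less), and under the −/− label every value was below (74.6 TPM or less against 84.3 TPM or more).

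Ratios between members within a library are not changed by multiplying a library by 1 factor, as rescaling does; quantile scaling can change them. The 5 pairs given here were chosen after the values were seen. The ratio of hspa5 to hsp90b1, BiP to GRP94, was 0.431, 0.404 and 0.520 under the +/+ label and 0.747, 0.589 and 0.860 under the −/− label, with no overlap and a ratio of means of 1.62. The ratio of canx to calr3a, membrane to soluble lectin, was 0.156, 0.156 and 0.251 against 0.302, 0.285 and 0.429, 1.81 times higher in the mean. hspa5 relative to calr3a was 0.178, 0.175 and 0.266 against 0.455, 0.352 and 0.570, 2.23 times higher in the mean. By contrast pdia4 relative to calr3a was 0.292 ± 0.0149 under the label +/+ and 0.292 ± 0.00506 under the label −/− (SD, n = 3 each), with overlapping groups (exact two-sided permutation p = 1.0). The ratio of ddit3 to xbp1 was 0.270, 0.265 and 0.208 against 0.301, 0.283 and 0.361. The exact two-sided permutation p of each of the 4 ratios without overlap was 0.1, the smallest 3 against 3 can give. For canx and hspa5 over calr3a this outcome was fixed by the single genes. Each numerator was higher, and calr3a lower, in every library labelled −/− than in any labelled +/+. With pairs chosen after the values were seen, these p-values add no support to the values of single genes.

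**Figure D3:**
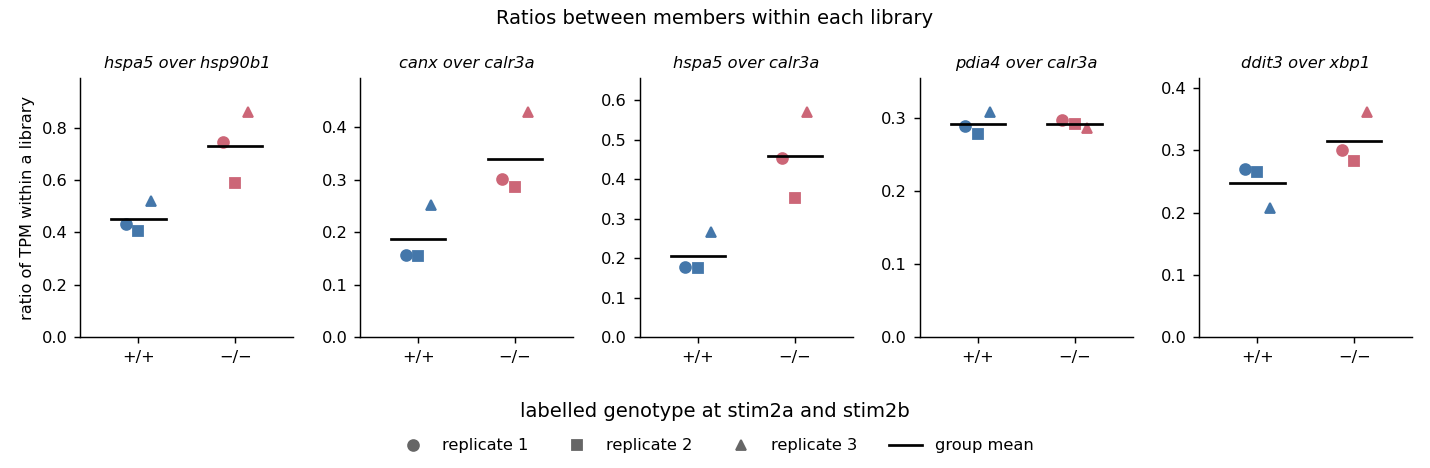
Ratio of TPM between pairs of members within each library (vertical axes, from 0), by labelled genotype; symbols mark the replicate and bars the group mean. hspa5 over hsp90b1, hspa5 over calr3a and canx over calr3a are higher in every library labelled −/−, while pdia4 over calr3a has the same mean of 0.292 under both labels.

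The authors' deposited table gives a test per gene on normalized counts and does not state its direction; stim2a and stim2b, higher under the label −/− here, have negative values there (−1.73 and −1.19). In the authors' deposited table the value of hspa5 was −0.68 ± 0.14 (log2, SE; adjusted p = 4.44e-05) and atf6 −0.75 ± 0.13 (adjusted p = 3.21e-07), while calr3a had 0.46 ± 0.13 (adjusted p = 0.00680) and pdia4 0.46 ± 0.12 (adjusted p = 0.00288). The authors' deposited table gave canx −0.40 (adjusted p = 0.0283) and ddit3 −0.26 (adjusted p = 0.0666). For hspa5, atf6, calr3a, pdia4, canx and ddit3 the sign there was opposite to the sign here, as for stim2a and stim2b. A test taken in the other direction would give such signs. The authors' table covers the whole series, so its values come from the same libraries as the limma fits and are no independent support. The values of hsp90b1, xbp1, sdf2l1 and edem1 in the authors' deposited table lay between −0.06 and 0.08, with adjusted p from 0.728 to 0.988. Among the 27373 genes with an adjusted p there, 31.9% were under 0.05. Mean normalized counts of the 10 genes in the authors' deposited table ran from 1141 for sdf2l1 to 22470 for calr3a.

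The rest of the pathway was described with 9 lists of ER genes. In these lists 11 symbols matched no gene, and the others matched 147 genes besides the members. Of these genes 146 were tested, 37 were called higher and 21 lower, and 88 were not called. Their median log2 fold change was 0.05, below the 0.22 of all tested genes. Of all tested genes, 30.8% were called higher and 8.76% lower. After rescaling, the pathway counts were 16 higher and 51 lower, beside 22.0% and 22.4% of all tested genes. The median was then −0.18 against 0.00. The counts of every list below are to be read beside these shares. Without replicate 1 or without replicate 2 labelled +/+, 1 of the other pathway genes passed, beside 3.02% and 2.14% of all tested genes. Without replicate 1 or without replicate 3 labelled −/−, 25 of the other pathway genes passed, beside 20.3% and 20.8% of all tested genes.

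Of 6 tested genes for the sensors and the proteases that release ATF6, atf6 included, 4 were called higher and 0 lower, as deposited and after rescaling. Of all tested genes, 30.8% were called higher and 8.76% lower as deposited, and 22.0% and 22.4% after rescaling. The PERK gene eif2ak3 stood at 1.41, 2.61 and 3.81 TPM under the +/+ label and 5.05, 4.32 and 5.34 TPM under the −/− label (log2 fold change 0.87, adjusted p = 0.0381). With quantile scaling eif2ak3 missed the threshold (adjusted p = 0.0684 by limma), while atf6, ern2 and mbtps1 stayed called higher. ern2, which encodes IRE1 beta, an IRE1 of mucosal epithelia in mammals, stood at 1.55 ± 0.323 and 3.26 ± 0.199 TPM (adjusted p = 0.00983), and mbtps1, the site-1 protease that cuts ATF6, at 7.99 ± 1.39 and 13.7 ± 1.61 TPM (SD, n = 3 each; adjusted p = 0.0141). The widely expressed IRE1 gene ern1 was at 3.76 ± 0.609 and 3.82 ± 0.187 TPM (adjusted p = 0.866), and the site-2 protease gene mbtps2 at 7.59 ± 1.28 and 8.14 ± 0.0835 TPM (adjusted p = 0.532). No gene was matched to the symbol atf6b, which was also on this list, so atf6b was not analysed here.

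Of 13 factors of the response, xbp1 and ddit3 included, 5 were called higher and 1 lower, and after rescaling 1 and 2. The ATF4 gene atf4a, whose mRNA is translated when PERK is active, stood at 186.3, 196.9 and 222.5 TPM against 257.5, 228.8 and 279.3 TPM (log2 fold change 0.34, adjusted p = 0.0351; 0.09 after rescaling), and its paralog atf4b at 35.2 ± 3.88 and 39.4 ± 4.85 TPM (adjusted p = 0.300). The bZIP gene cebpb was at 18.4, 18.4 and 24.5 TPM against 70.7, 31.4 and 35.4 TPM, and replicate 1 labelled −/− carried most of its higher mean (adjusted p = 0.0256). creb3l2, an ER-bound factor cut like ATF6, had a ratio of 1.40 (adjusted p = 0.0327), and nfe2l2a, the oxidative stress factor Nrf2, fell to 72.6 ± 1.33 from 86.8 ± 2.76 TPM (adjusted p = 0.0285).

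Genes known in mammals as targets of the PERK, ATF4 and CHOP branch were split, with 6 called higher and 2 lower of 16 tested, and 4 and 6 after rescaling. The mTORC1 inhibitor gene ddit4, which also answers to hypoxia and glucocorticoids, stood at 12.5, 13.6 and 13.9 TPM under the +/+ label and 41.2, 34.0 and 35.4 TPM under the −/− label (ratio of means 2.77, adjusted p = 0.000263). trib3, a pseudokinase induced by CHOP, rose from 8.75 ± 1.18 to 13.9 ± 0.851 TPM (adjusted p = 0.0129), and phgdh, of serine synthesis, from 24.1 ± 2.16 to 34.6 ± 0.269 TPM (SD of n = 3 per label; adjusted p = 0.0116). The phosphatase subunit gene ppp1r15a, GADD34, which restores translation, was at 34.3, 33.0 and 34.6 TPM against 34.2, 31.7 and 36.1 TPM (adjusted p = 0.987).

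Of 17 further genes of the Hsp70 and Hsp90 list, 1 was called higher and 2 lower, and after rescaling 0 higher and 7 lower. The exchange factor gene hyou1 stood at 16.7 ± 2.32 and 22.5 ± 2.73 TPM (adjusted p = 0.0389; 0.128 after rescaling), whereas dnajb11, a J-protein partner of BiP, fell from 41.6 ± 1.96 to 31.6 ± 0.787 TPM (SD of n = 3 per label; adjusted p = 0.0151). For cnpy4, a canopy family gene, the tables list 10.8, 11.4 and 8.69 TPM against 0, 2.53 and 0 (adjusted p = 0.0114). A listed 0 in these tables can be a failed estimate and is not read as absence.

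Among the 16 tested genes of the lectin and calcium-binding list besides canx and calr3a, 6 were called lower and 0 higher, with a median log2 fold change of −0.18; after rescaling 10 were lower and 0 higher. On the deposited scale the reticulocalbin gene rcn3 fell from 51.5 ± 3.56 to 35.1 ± 1.53 TPM (adjusted p = 0.00923), rcn1 from 37.1 ± 0.221 to 26.6 ± 1.63 TPM (adjusted p = 0.0114) and calub, a calumenin gene, from 43.5 ± 0.997 to 30.6 ± 1.78 TPM (SD of n = 3 per label; adjusted p = 0.00960). Of 11 prolyl isomerases and collagen chaperones 3 were called lower and 0 higher, and 8 and 0 after rescaling. These were fkbp7, at 44.4 ± 4.97 and 29.6 ± 1.07 TPM, fkbp10b, at 27.9 ± 0.420 and 20.9 ± 0.528 TPM, and fkbp14, at 14.9 ± 0.490 and 11.6 ± 0.608 TPM (SD, n = 3 each; adjusted p = 0.0111, 0.0144 and 0.0270).

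Of 20 tested disulfide isomerase genes besides pdia4, 5 were called higher and 1 lower, and after rescaling 1 higher and 4 lower. The pancreatic isomerase gene pdia2 stood at 73.3, 85.4 and 77.4 TPM against 118.5, 147.2 and 95.02 TPM (adjusted p = 0.0238; 0.165 after rescaling). It was highest in replicate 2 labelled −/−, where the summed level of 16 exocrine pancreas genes was also highest (14930 TPM, against 6952 to 9112 TPM under the +/+ label and 11070 and 9976 TPM in replicates 1 and 3 labelled −/−). The part of this summed level in the value of pdia2 was not tested. agr2, an isomerase of mucus-secreting cells, was at 168.9, 116.1 and 110.1 TPM against 90.8, 81.0 and 75.5 TPM (adjusted p = 0.0220). It is itself on the mucous and hatching gland list, whose 7 genes summed to 135.3 to 192.6 and 97.1 to 109.7 TPM. That sum is mostly agr2, which held 168.9 of 192.6 TPM in replicate 1 labelled +/+ and 90.8 of 109.7 TPM in replicate 1 labelled −/−. txndc11, which encodes a thioredoxin-domain protein, had a ratio of 1.63 (adjusted p = 0.0281).

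Of 28 tested genes of ER-associated degradation besides edem1, 13 were called higher and 2 lower, but after rescaling the counts were 4 and 6. The ubiquitin ligase gene syvn1, HRD1, rose from 13.1 ± 2.41 to 20.3 ± 3.26 TPM (adjusted p = 0.0231) and rnf185 from 35.5 ± 2.47 to 46.5 ± 3.89 TPM (SD of n = 3 per label; adjusted p = 0.0223). The channel component gene derl1 fell from 35.2 ± 1.48 to 26.1 ± 1.70 TPM (adjusted p = 0.0152). Of these, syvn1 kept the call as higher after rescaling (adjusted p = 0.0211), derl1 the call as lower (0.00563), and rnf185 did not pass (0.178).

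Translocation and glycosylation genes went both ways, with 5 of 22 called higher and 4 lower, and 3 and 8 after rescaling. ssr1, a subunit of the translocon-associated complex, stood at 61.0, 65.1 and 87.9 TPM against 119.2, 105.6 and 147.8 TPM (adjusted p = 0.0152), and the signal peptidase subunit gene spcs3 fell from 110.6 ± 6.61 to 85.3 ± 9.63 TPM (SD of n = 3 per label; adjusted p = 0.0260). Within the oligosaccharyltransferase, which attaches glycans to entering chains, the catalytic subunit genes stt3a and stt3b were called higher (adjusted p = 0.0418 and 0.0208), as were rpn1 (0.0265) and ddost (0.0331), while the small subunit genes dad1 (0.0356) and ostc (0.0458) were called lower. The subunit gene rpn2 stood at 113.9 ± 8.77 and 116.1 ± 13.7 TPM (SD, n = 3 each) and was not called (adjusted p = 0.861). All of these but stt3b were named after their values were seen. After rescaling stt3b, rpn1, dad1 and ostc kept their calls, and stt3a and ddost did not (0.0722 and 0.0840). Outside the ER, 17 heat shock genes of the cytosol and mitochondria had 5 called higher and 0 lower (3 and 1 after rescaling); hsp90ab1 stood at 1204 ± 176.4 and 1822 ± 312.8 TPM (adjusted p = 0.0204) and hspa8, the constitutive cytosolic Hsp70, at 1614 ± 64.6 and 1715 ± 144.0 TPM (SD, n = 3 each; adjusted p = 0.419).

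**Figure D4:**
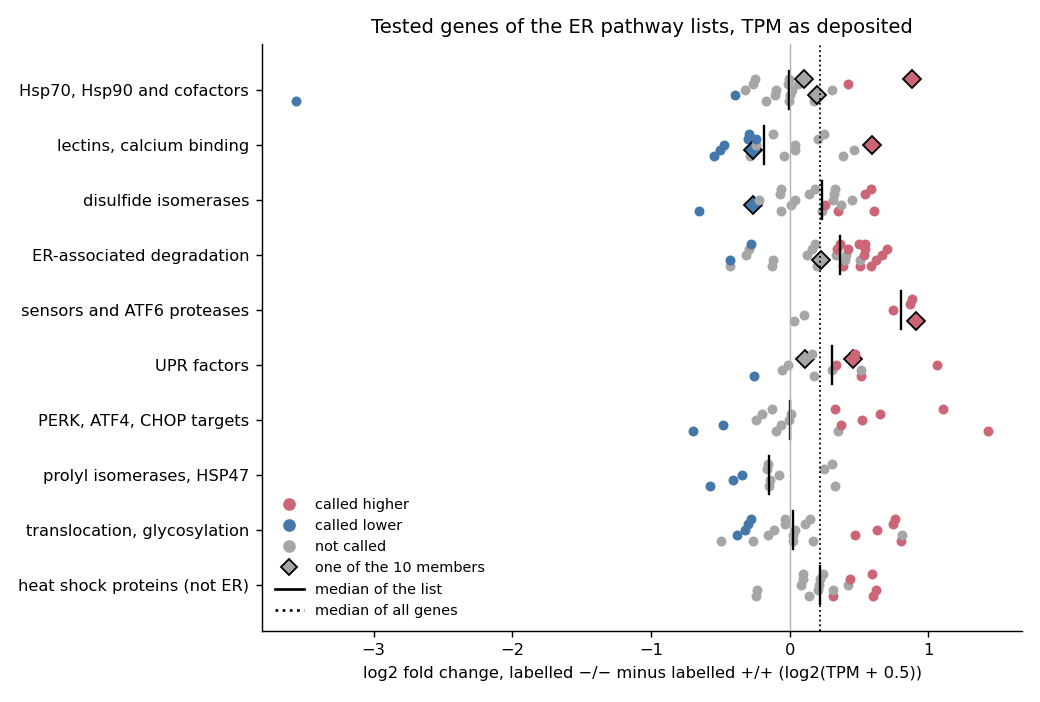
Log2 fold change (horizontal axis, labelled −/− minus labelled +/+, TPM as deposited) of the tested genes in 9 ER lists and 1 list of heat shock proteins outside the ER; colours give the call, diamonds the 10 members, short bars the list medians and the dotted line the median of all genes. The called genes of the sensor list lie to the right, and the called genes of the calcium-binding list other than canx lie to the left.

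By a rule that ranks the 155 other tested pathway genes, the levels most like hspa5 over the 6 libraries were those of tmx2b, txndc11, atf4a, ddit3 and ssr1, with Pearson correlations of log2(TPM + 0.5) from 0.987 to 0.990. These correlations span both labels and are given as a description. Of these, tmx2b, which encodes a thioredoxin-related membrane protein, stood at 14.8 ± 0.677 and 16.9 ± 0.552 TPM (SD, n = 3 each). It was not called by limma (adjusted p = 0.135). txndc11, atf4a, ddit3 and ssr1 were called higher, with log2 fold changes from 0.34 for atf4a to 0.80 for ssr1, against 0.88 for hspa5. A correlation does not measure the size of a change.

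Beside the member values, the summed level of 12 neuronal genes was 788.9 to 943.5 TPM under the +/+ label and 971.2 to 1255 TPM under the −/− label, with 10 called higher and 1 lower. The 11 keratinocyte genes summed to 18740 to 20780 and 15630 to 16860 TPM, with 1 higher and 5 lower, the 16 liver genes to 18140 to 20020 and 13970 to 18130 TPM, with 2 higher and 5 lower, and the 11 cartilage and notochord genes to 737.2 to 1006 and 1019 to 1413 TPM, with 8 higher and 1 lower. Of 15 tested exocrine pancreas genes 7 were called higher and 1 lower. Of 6 tested mucous and hatching gland genes, agr2 included, 1 was called higher and 3 lower. These counts stand beside 30.8% higher and 8.76% lower of all tested genes. No gene of these lists was at 0 in all libraries, and their part in the values of the members was not tested.

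Genomic span (start to end, introns included) was set against log2 fold change by Spearman correlation, across genes that are not independent replicates. The value was 0.624 over the 10 members, 0.282 over the 156 tested pathway genes, members included, and 0.354 over all 20330 tested genes. With the genes in 4 bins of equal size by span, the median log2 fold change was 0.01 in the shortest bin (up to 7284 bases), 0.10 and 0.26 in the next, and 0.47 in the longest (from 37425 bases), where 49.1% of genes were called higher and 1.89% lower. atf6 (100439 bases) and canx (44126 bases) belong to that longest bin and had values of 0.91 and 0.59. From the sensor list, eif2ak3 (59329 bases) and mbtps1 (39747 bases) also belong to it, as does ern1 (60982 bases), which was not called. ern2 (25954 bases) lies in the third bin, where 33.3% of genes were called higher. hspa5, with 7908 bases, lies in the second bin, whose median was 0.10 and where 21.5% of genes were called higher, and ddit3, with 3198 bases, in the first, where 19.3% were. calr3a (6663 bases) and pdia4 (6781 bases) lie in the first bin too, where 15.7% were called lower. After rescaling the median of this first bin was −0.21, with 13.7% called higher and 34.1% lower. The part of span in these values was not tested.

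**Figure D5:**
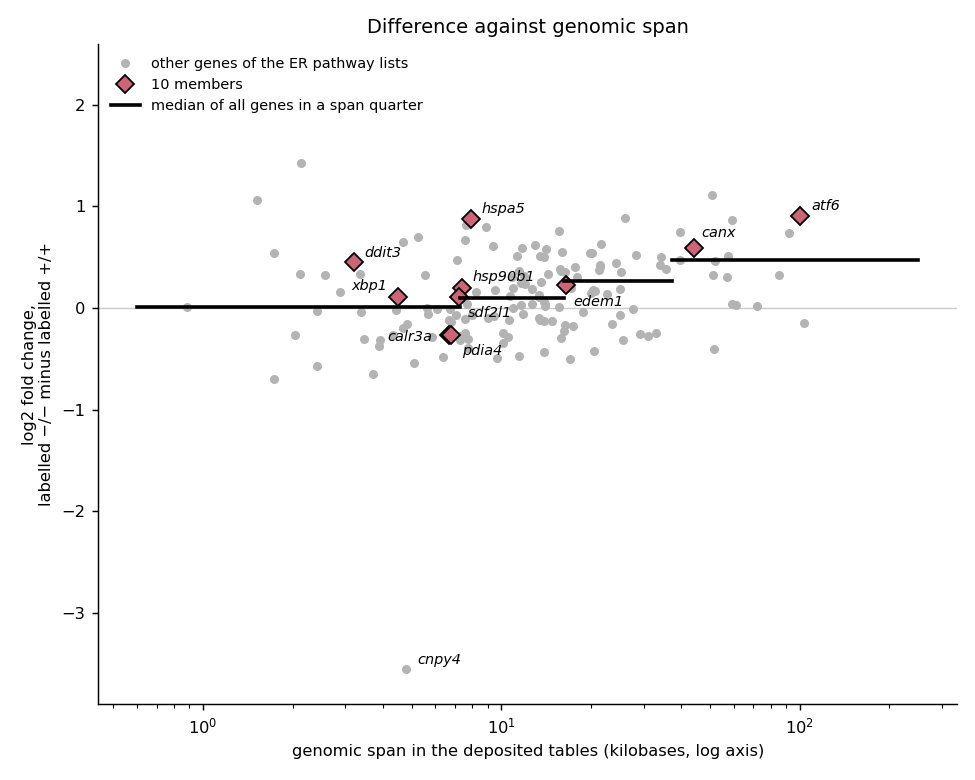
Log2 fold change (vertical axis, labelled −/− minus labelled +/+) against genomic span (log axis, kilobases) for the 10 members and the other tested ER pathway genes; black lines are medians of all tested genes in each of 4 span bins, drawn over the plotted range. hspa5 lies well above the median of its bin, 0.88 against 0.10, and canx near the median of its own, 0.59 against 0.47.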

How the data were processed

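Each library has a gene table that, per the file headers, has StringTie's layout. The submitters' processing notes list DESeq2 1.16.1, STAR 2.5.3a and StringTie 1.3.3b, with no roles, and both danRer11 and hg38 as builds. Coordinates are printed as deposited. The deposited TPM adds up to 1000000 a table; the deposited FPKM corrects for both length and depth; the deposited coverage is the average signal over a gene's bases. The authors' table of the whole series gives log2 fold changes, standard errors, a test score and p-values. Groups and replicate numbers follow the titles in the labels; names of the tables contradict the labels and were not used.

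Rows of 1 gene were summed, and 29201 of 32520 genes had a symbol. The main test was limma 3.58.1 in R 4.3.3, with trended empirical Bayes moderation, on log2(TPM + 0.5) of genes reaching 1 TPM in 3 libraries or more, with Benjamini-Hochberg adjustment over all tested genes. This scale understates fold changes of low genes. SciPy 1.17.1 and pandas 2.3.3 under Python 3.11.15 served the other steps. Alternatives were rescaled or quantile-scaled TPM, FPKM, other pseudocounts and filters, the replicate block, and leaving out libraries.

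As a check of pairing, deviations of same-numbered libraries from their group means correlated at 0.25, 0.19 and 0.48, each over the 0.1 that the rule asks. No label gives a shared clutch, so this pairing rests on the data alone, and replicate 1 labelled +/+ correlated more with replicate 2 labelled −/− (0.29). Named were all members and targeted genes, ern1, eif2ak3, atf4a and atf4b, up to 3 called genes per list with the smallest p, and the 5 genes most like hspa5. The genes calr, calr3b, mbtps2, ppp1r15a, hsp90ab1, hspa8, stt3a, rpn1, rpn2, ddost, dad1 and ostc were named after their values were seen. The members and lists were chosen with earlier results of these data known. The planned searches of promoter and protein sequences were not run.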

Additional observations from a re-analysis of the deposited data

How the results depend on the processing

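Of 180 alternative values of the 10 members (18 each), 122 kept the direction and the side of the threshold, 32 lost the call, 8 gained one and 18 changed sign; the cause was not tested. Sign changes were of hsp90b1, xbp1, sdf2l1 and edem1, none called on all 6 libraries without the block. With rescaling, with or without the replicate block, their log2 fold changes were −0.0432, −0.1343, −0.1297 and −0.006. With rescaling and without replicate 1 labelled +/+ they were −0.049, −0.2027, −0.119 and −0.023, and without replicate 2 −0.0116, −0.1869, −0.1324 and −0.0187. Quantile scaling gave sdf2l1 −0.117. Leaving out 1 library at a time gave xbp1 −0.0025 to 0.2999. Called members ranged from 0 to 9 with 1 library left out, and were 2 and 2 with rescaling and without replicate 1 or 2 labelled +/+. The called pathway genes, 58 of 146, ranged from 1 to 68 with 1 library left out, and were 34 without a filter, 96 with the replicate block and rescaling, and 27 and 28 in the rescaled fits without replicate 1 or 2 labelled +/+. Over all genes 8046 were called, 430 to 9525 with 1 library left out, 5238 at a mean of at least 5 TPM, and 3408 and 3283 in those rescaled fits. The replicate block gave 8 members, 86 pathway genes and 11960 genes in all; on the deposited scale it changed the calls of hsp90b1 and edem1 among members, and on the rescaled scale those of canx and ddit3, giving 6 members in place of 4. Both targeted genes were called in the fits that gave a value, except that leave-one-out counts were 1 to 2, with 1 without replicate 2 labelled +/+. They fell under the filter at a mean of at least 5 TPM, without any library labelled −/− and without replicate 3 of both labels. Each fit that gave them a value thus kept every library labelled −/−, where both genes are high. Their calls are therefore a description and no support. The leave-outs with rescaling and of replicate 3 under both labels were chosen after seeing the data. TPM holds no depth, and counting error per library was not estimated.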
